A study of Mus musculus with 6 samples.

Results

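Carboxylesterases are serine hydrolases that cut ester bonds in triglycerides, cholesteryl esters and many drugs. The mouse carries them as subfamilies of tandem gene copies, and the liver is a main site of their expression. Most are soluble glycoproteins of the endoplasmic reticulum (ER) lumen, where they act on stored lipid and contribute to the assembly of very-low-density lipoprotein, whereas Ces1c is secreted into plasma. Messenger RNAs of the Ces1 subfamily have been reported as substrates of regulated IRE1-dependent decay (RIDD), in which the ER stress sensor IRE1 cuts selected mRNAs at the ER membrane. IRE1 is also the enzyme that splices the mRNA of Xbp1, which encodes a factor that induces ER folding genes. Here 10 liver carboxylesterase genes, chosen by name, were followed, namely Ces1b, Ces1c, Ces1d, Ces1e, Ces1f, Ces1g, Ces2a, Ces2c, Ces3a and Ces3b. They are 10 of 20 rows with a carboxylesterase name and of 54532 genes in all, and all 10 passed the filter on low counts.

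RNA was sequenced from primary hepatocytes of C57BL/6 mice aged 32 to 34 weeks that had been on a high-fat diet for 26 weeks. The XCON group carried floxed alleles (Xbp1FL/FL) and the XCKO group lacked Xbp1 in hepatocytes (Xbp1ΔHep), with 3 libraries each. All 6 libraries therefore come from the high-fat diet, and no lean group was compared. Neither the Cre driver nor the exons removed could be taken from the labels.

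Total counts ran from 23919355 to 27240079 per library. Values are listed in the order of library 1, 2 and 3. XCON held 4453, 8021 and 9434 reads of Xbp1 against 1458, 1013 and 1558 for XCKO, so the libraries matched their labels in this gene. Mitochondrial transcripts took 22.8% of the counts in XCON 1 and 8.99% to 13.1% in the other libraries. Of 10 hepatocyte markers, 0 passed edgeR's test (5 at an unadjusted p under 0.05 and 5 by DESeq2), and their median log2 fold change was 0.53. The summed hepatocyte markers ranged from 68291 to 92928 CPM in XCON and from 93382 to 123430 CPM in XCKO, where CPM is a count scaled to the TMM-adjusted library size. The macrophage and stellate lists had medians of -0.90 and -1.0, with summed levels of 1275 to 2476 CPM in XCON against 444 to 1258 CPM in XCKO and of 287 to 591 against 117 to 294 CPM. In edgeR 1 of 10 macrophage markers (Cd68) and 2 of 8 stellate markers (Lrat and Pdgfrb) passed, all lower in XCKO. DESeq2 called 4 and 6 of them. Cholangiocyte markers had a median of -1.70, and 0 of 6 passed in edgeR (5 at an unadjusted p under 0.05 and 3 by DESeq2). Of the leukocyte markers, Cd3e, Cd8a, Cd79a, Ms4a1, Nkg7 and Ptprc had log2 fold changes of -0.80 to -1.84, while the neutrophil genes S100a8 and S100a9 had 2.48 and 1.84, and 0 of these 8 passed in edgeR (1 at an unadjusted p under 0.05 and 1 by DESeq2). Summed erythroid markers were 42.3, 43.5 and 70 CPM in XCON libraries 1, 2 and 3, all below the 407, 77.4 and 940 CPM of the XCKO libraries. Their median log2 fold change was 4.45, and of 5 tested 0 passed in edgeR, with 5 at an unadjusted p under 0.05 and 5 by DESeq2. Most of the sum in the XCON libraries and in XCKO 2 was Alas2, with 23.5, 34.3 and 56.2 CPM and with 62.6 CPM. No listed globin gene was higher in XCKO 2 than in its highest XCON library. Hbb-bs had 9.08 CPM in XCKO 2, against 4.44 to 10.7 CPM in XCON and 197 and 537 CPM in XCKO 1 and 3. The part of these shifts in the results that follow was not tested. The Y-linked genes Ddx3y, Eif2s3y, Kdm5d and Uty were present and Xist was near 0 in both groups. In bulk RNA, fewer cells of a type and less RNA per cell cannot be told apart.

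The genes lie in a pair of clusters on mouse chromosome 8, given on mm10. The first, on the minus strand from 93020214 to 93535830, holds all Ces1 genes and Ces5a. Its members run in the order Ces1b (ENSMUSG00000078964, 93056728 to 93080017), Ces1c (ENSMUSG00000057400, 93099015 to 93131283), Ces1d (ENSMUSG00000056973, 93166068 to 93197838), Ces1e (ENSMUSG00000061959, 93201218 to 93229619), Ces1f (ENSMUSG00000031725, 93256236 to 93279747) and Ces1g (ENSMUSG00000057074, 93302369 to 93337308). The other, on the plus strand from 104734003 to 105150109, holds the Ces2, Ces3 and Ces4 genes. Its members are Ces2a (ENSMUSG00000055730, 104734003 to 104741634), Ces2c (ENSMUSG00000061825, 104847068 to 104854483), Ces3a (ENSMUSG00000069922, 105048601 to 105058413) and Ces3b (ENSMUSG00000062181, 105083753 to 105093929). All are annotated as protein-coding. The longest coding transcript has 13 or 14 exons in Ces1 members, 12 in Ces2 members and 13 in Ces3 members.

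Coding sequences were 78.3% to 92.2% identical between Ces1 members, 84.5% between Ces2a and Ces2c and 95.3% between Ces3a and Ces3b. Between subfamilies the aligned bases were 70% to 73.9% identical. The letters CTGCAG, written CUGCAG in RNA, form the core of the site reported for cleavage by IRE1, so the transcripts were searched for them. Each of the 6 Ces1 members carried this hexamer at the same place in its coding sequence, starting at base 209, or 212 in Ces1e. Other stretches common to all 6 Ces1 members were not searched for. The 26-base stretches around the hexamer are printed here because it lies at the same place in each. They come from the GENCODE M21 transcripts, 5′ to 3′ with the hexamer in capitals.
Ces1b: ccaccagagcCTGCAGagccctggag
Ces1c: ccaccacagcCTGCAGagccctggag
Ces1d: ccaccacagcCTGCAGagccctggag
Ces1e: ccaccacagcCTGCAGagccctggag
Ces1f: ccaccacagcCTGCAGagccctggag
Ces1g: ccaccagagcCTGCAGagccctggag
In Ces1g the hexamer lies at chr8:93335063-93335068 on the minus strand. The stretch in Ces2c that aligns with it is shown next, with the aligned 6 bases in capitals.
Ces2c: cctcctgaggCCCCTGaaccatggag
Counted from 1 at the first base of the hexamer and with the base of Ces1g first, Ces2c differs by T2C, G3C and A5T. In Ces2a, Ces3a and Ces3b this stretch did not align with Ces1g without a gap.

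The hexamer itself was not limited to Ces1. Ces2a and Ces2c each had 3 copies in the coding sequence and Ces3a and Ces3b 2 each, at other places. Within Ces1 the number varied. Ces1c, Ces1d, Ces1f and Ces1g had 1 copy in the whole transcript, Ces1b had 2, and Ces1e had 5, of which 3 were in the coding sequence. Among the copies in the genes outside Ces1 are the stretches that follow, from Ces2a at coding base 286 and from Ces3a at coding base 889.
Ces2a: ggccatgtgtCTGCAGcctgatataa
Ces3a: ccagtgtttgCTGCAGaaggaaggaa
Of 2076 tested genes with a longest coding transcript of 1800 to 2500 bases, 82.5% held at least 1 copy. A match is a description of the letters and was not measured as a cut site.

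Differential expression was tested over all genes with edgeR's quasi-likelihood test and Benjamini-Hochberg adjustment, and a gene passed at an adjusted p under 0.05. Of the 10 members, 4 passed, 1 higher (Ces2a) and 3 lower in XCKO (Ces1c, Ces1e and Ces1g). Among all 14873 genes tested 9.27% passed, 5.21% higher and 4.05% lower. The 3 lower genes are all Ces1 members, and the other 3 Ces1 members, Ces1b, Ces1d and Ces1f, had log2 fold changes below 0 without passing. The median log2 fold change was -1.11 over the 6 Ces1 members and -0.05 over all genes tested. In CPM the groups did not overlap in 7 of the 10 members, against 35.7% of all genes tested.

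**Figure D1:**
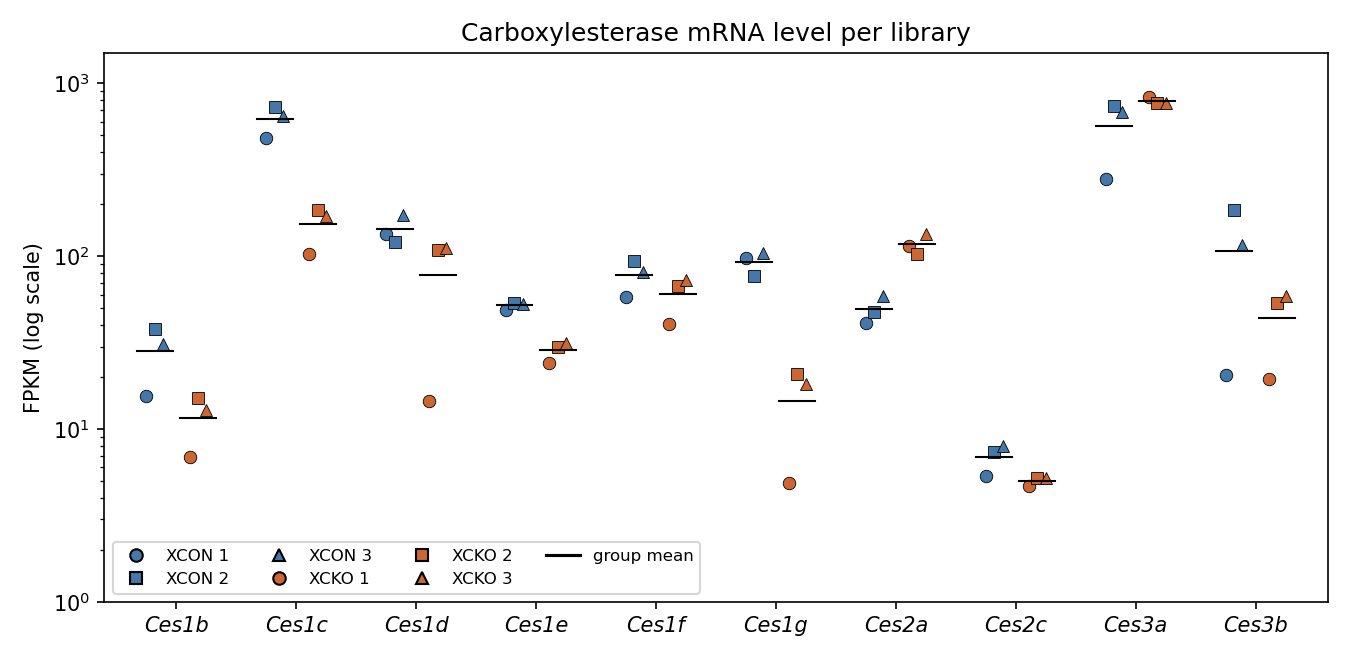
Level of each carboxylesterase in the 6 libraries in FPKM (a count scaled to gene length and library size) on a log axis, with each library as a point and the group mean as a bar. Points of XCKO lie below all XCON points for Ces1b, Ces1c, Ces1d, Ces1e, Ces1g and Ces2c and above them for Ces2a and, on this scale but not in CPM, for Ces3a. XCKO 1 is the lowest library of its group in all 6 Ces1 members.

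Ces1c, which encodes the plasma carboxylesterase, was the most abundant Ces1 mRNA. It measured 1160, 1779 and 1521 CPM for XCON, against 238, 442 and 390 CPM for XCKO. The lowest XCON library was above the highest XCKO library. Ces1c fell from 1487 ± 311 to 357 ± 106 CPM (± SD, 3 libraries), a log2 fold change of -2.06 ± 0.28 (SE) and a 4.17-fold difference (adjusted p = 0.0086 in edgeR's test). By p-value it ranked at 70 of the 14873 genes tested. Ces1c passed whichever library was left out, with adjusted p-values of 0.011 to 0.038.

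Ces1g encodes an ER lipase whose loss in mice is known to raise liver and blood lipids. Its levels were 242, 192 and 250 CPM for XCON, against 11.7, 50.8 and 42.8 CPM for XCKO. All XCKO libraries lay far below XCON, and XCKO 1 was lowest. The mean fell from 228 ± 31.1 to 35.1 ± 20.7 CPM (± SD, 3 libraries), with a log2 fold change of -2.70 ± 0.50 (SE) and a 95% interval of -3.88 to -1.53 (adjusted p = 0.025). The difference was 6.50-fold. The call for Ces1g was lost without XCKO 3 (log2 fold change -2.85, adjusted p = 0.07), XCON 1 (-2.65, 0.063), XCON 2 (-2.81, 0.051) or XCON 3 (-2.62, 0.057). Without XCKO 1 the log2 fold change was -2.28 and the adjusted p 0.0067.

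Ces1e encodes egasyn, which holds β-glucuronidase in the ER. It was the least variable Ces1 member, with 111, 123 and 116 CPM for XCON, against 52.9, 66.8 and 68 CPM for XCKO. The groups were well apart. It fell 1.87-fold, by a log2 fold change of -0.90 ± 0.16 (SE), and the adjusted p was 0.016. Leaving out each library in turn gave adjusted p-values of 0.038 to 0.049.

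The remaining Ces1 members did not pass. Ces1b, whose coding sequence was 92.2% identical to Ces1c, had 31.6, 77.8 and 61.4 CPM for XCON, against 13.4, 30.4 and 24.9 CPM for XCKO. The groups were barely apart, with XCON 1 at 31.6 and XCKO 2 at 30.4 CPM. The log2 fold change was -1.31 ± 0.39 (SE; adjusted p = 0.078), and it passed in DESeq2 (adjusted p = 0.0035). Ces1d encodes triacylglycerol hydrolase, which mobilises stored triglyceride for lipoprotein assembly. It had 331, 298 and 414 CPM for XCON, against 34.3, 261 and 258 CPM for XCKO. XCKO 2 and 3 were just below XCON and XCKO 1 stood alone. The log2 fold change of -0.91 ± 0.68 (SE) had a 95% interval of -2.55 to 0.72 (adjusted p = 0.41), and without XCKO 1 it was -0.41 (adjusted p = 0.28). Ces1f, a further triglyceride hydrolase, was the only Ces1 member with overlapping groups. Its levels were 196, 320 and 267 CPM for XCON, against 132, 226 and 236 CPM for XCKO. The log2 fold change was -0.40 ± 0.27 (SE), with a 95% interval of -1.0 to 0.20 (adjusted p = 0.35). Without XCKO 1 it was -0.17 (adjusted p = 0.70), and without XCON 2 it was -0.22 (adjusted p = 0.67).

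Ces2a, an inducible hydrolase of drugs and of di- and monoacylglycerol, changed in the opposite direction. It had 99.6, 118 and 140 CPM for XCON, against 268, 248 and 311 CPM for XCKO. Every XCKO library was above every XCON library. The mean rose from 119 ± 20.3 to 275 ± 32.1 CPM (± SD, 3 libraries), a log2 fold change of 1.21 ± 0.19 (SE) and a 2.31-fold difference (adjusted p = 0.012). It passed whichever library was left out, with adjusted p-values of 0.018 to 0.044.

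Ces2c, which also hydrolyses acylglycerols, was the least abundant member. It had 12.7, 17.6 and 18.4 CPM for XCON, against 10.8, 12.1 and 11.8 CPM for XCKO. The highest XCKO library was 12.1 and the lowest XCON library 12.7 CPM, so the groups were only just apart. Its log2 fold change was -0.49 ± 0.18 (SE; adjusted p = 0.11), and it passed when counts were scaled by library totals alone (adjusted p = 0.032). Of the other Ces2 genes, Ces2e (104926260 to 104934672) and Ces2g (104961718 to 104969537) had more than 50 CPM in every library. Ces2e averaged 233 ± 29.8 CPM for XCON and 291 ± 33.8 for XCKO (± SD, 3 libraries; adjusted p = 0.26). Ces2g had 67.5 ± 9.84 and 86.8 ± 6.9 CPM (± SD, 3 libraries; adjusted p = 0.17). Ces4a reached 1.04 CPM in XCKO 3 and was at or under 0.88 CPM elsewhere, and Ces5a and Ces2f had 0 reads.

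Ces3a and Ces3b, orthologs of human CES3, had the widest spread within XCON. Ces3a measured 757, 2041 and 1795 CPM for XCON, against 2204, 2071 and 1979 CPM for XCKO. The XCKO libraries lay close together and XCON 1 was far below the rest. The log2 fold change was 0.45 ± 0.34 (SE), with a 95% interval of -0.32 to 1.21 (adjusted p = 0.41), and it was 0.12 without XCON 1 (adjusted p = 0.70). Ces3b measured 54.1, 493 and 299 CPM for XCON, against 50.3, 140 and 148 CPM for XCKO. XCON 1 fell inside the XCKO range and the other XCON libraries were above it. The log2 fold change was -1.32 ± 0.82 (SE), with a 95% interval of -3.34 to 0.69 (adjusted p = 0.33). Without XCON 1 it was -1.81 (adjusted p = 0.093) and without XCON 2 it was -0.64 (adjusted p = 0.67). XCON 1 is the library with 22.8% mitochondrial counts, and the part of this in the Ces3 levels was not tested.

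**Figure D2:**
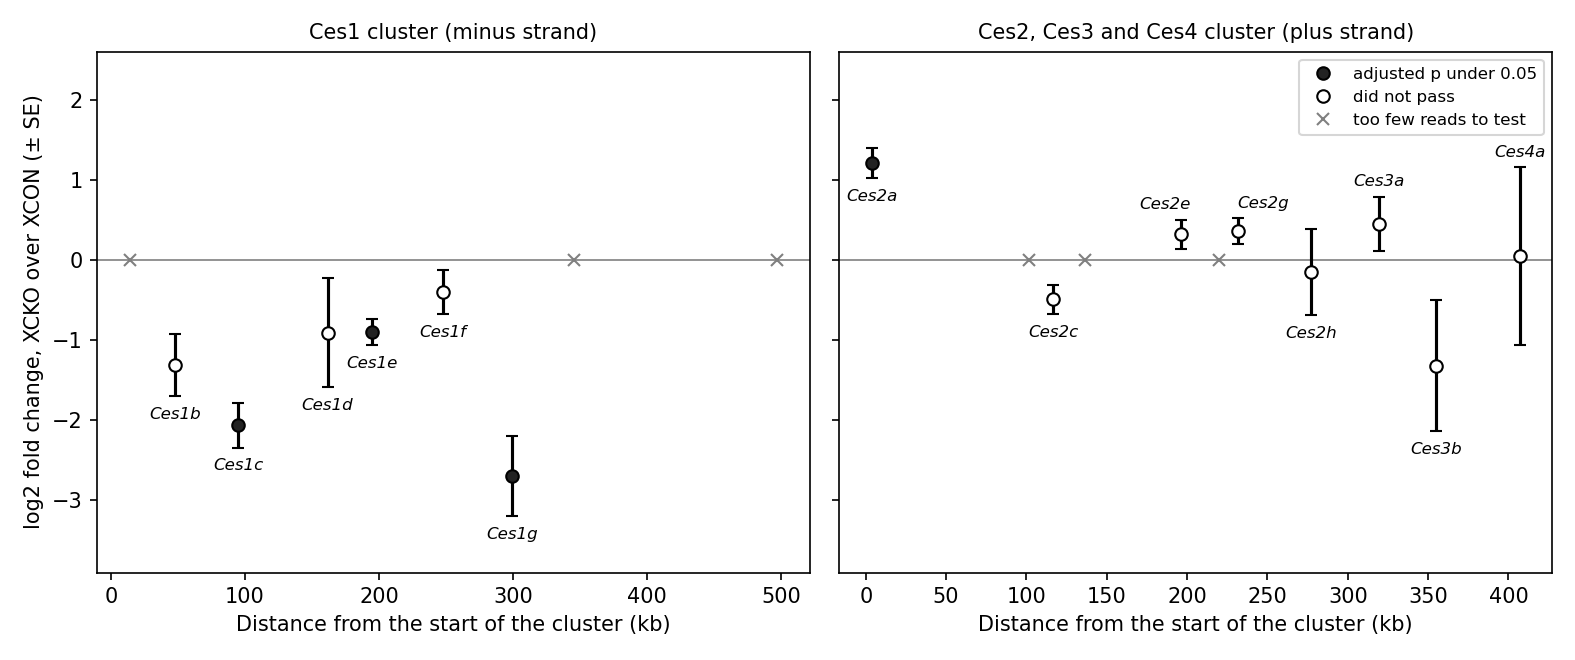
Log2 fold change of each carboxylesterase (XCKO over XCON, ± SE) against the distance in kb of its midpoint from the start of its cluster, with filled points for adjusted p under 0.05 and crosses for genes with too few reads to test. All 6 tested carboxylesterases of the Ces1 cluster lie below 0, from -0.40 in Ces1f to -2.70 in Ces1g, while the other cluster holds Ces2a at 1.21 and Ces3b at -1.32.

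Along the chromosome the size of the difference did not follow the order of the genes. Ces1f (-0.40) lies between Ces1e (-0.90) and Ces1g (-2.70), and Ces1d (-0.91) between Ces1c (-2.06) and Ces1e. Within 500 kb on either side of the Ces1 cluster 5 genes were tested and 0 passed in edgeR, with 3 at an unadjusted p under 0.05, 2 called by DESeq2 and a median log2 fold change of -0.51. Of 29 tested genes flanking the other cluster 0 passed in edgeR, with 5 at an unadjusted p under 0.05, 2 called by DESeq2 and a median of -0.04.

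Within a group, 1 library was often the lowest. XCKO 1 was the lowest XCKO library for all 6 Ces1 members, Ces2c and Ces3b, 8 of 10 members, against 30.5% of all genes tested. XCON 1 was the lowest XCON library for 8 of 10 members, against 32.7% of all genes tested. Of Ces1 members, Ces1d and Ces1g were lowest in XCON 2 instead. XCKO 1 also had the highest summed endothelial markers, 775 CPM against 381 to 520 CPM in the other libraries. Their part in the carboxylesterase levels was not tested.

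Because reads of near-identical copies may be assigned to either gene, levels were also summed within each subfamily, which does not depend on that assignment inside a subfamily. Reads shared with genes outside the sum, such as pseudogenes, are not covered by it. The Ces1 members together had 2072, 2790 and 2629 CPM for XCON, against 483, 1077 and 1020 CPM for XCKO. Their sum was 0.344 times the XCON mean in XCKO, and the groups did not overlap. The Ces2 members together had 112, 135 and 158 CPM in XCON and 279, 260 and 322 CPM in XCKO, a ratio of 2.12. Most of this sum was Ces2a, with a mean of 87.8% of the summed FPKM in XCON and 95.8% in XCKO. With Ces2e, Ces2g and the other Ces2 rows the sums were 371, 444 and 496 against 696, 598 and 701 CPM, a ratio of 1.52. The Ces3 members together had 811, 2534 and 2094 CPM in XCON and 2254, 2211 and 2127 CPM in XCKO, a ratio of 1.21 with overlapping groups. On the log2 scale the Ces3 difference was 0.43, and -0.07 without XCON 1. These sums are a description and carry no test.

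The make-up of the 10 members differed accordingly. Ces1 members made up 69.2%, 51.1% and 53.9% of the summed CPM of the 10 members for XCON, against 16%, 30.4% and 29.4% for XCKO. The Ces3 share ran from 27.1% to 46.4% for XCON and from 61.3% to 74.7% for XCKO. The sum over all 10 members was 4445 ± 1289 CPM for XCON and 3344 ± 287 for XCKO (± SD, 3 libraries), and the groups overlapped.

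**Figure D3:**
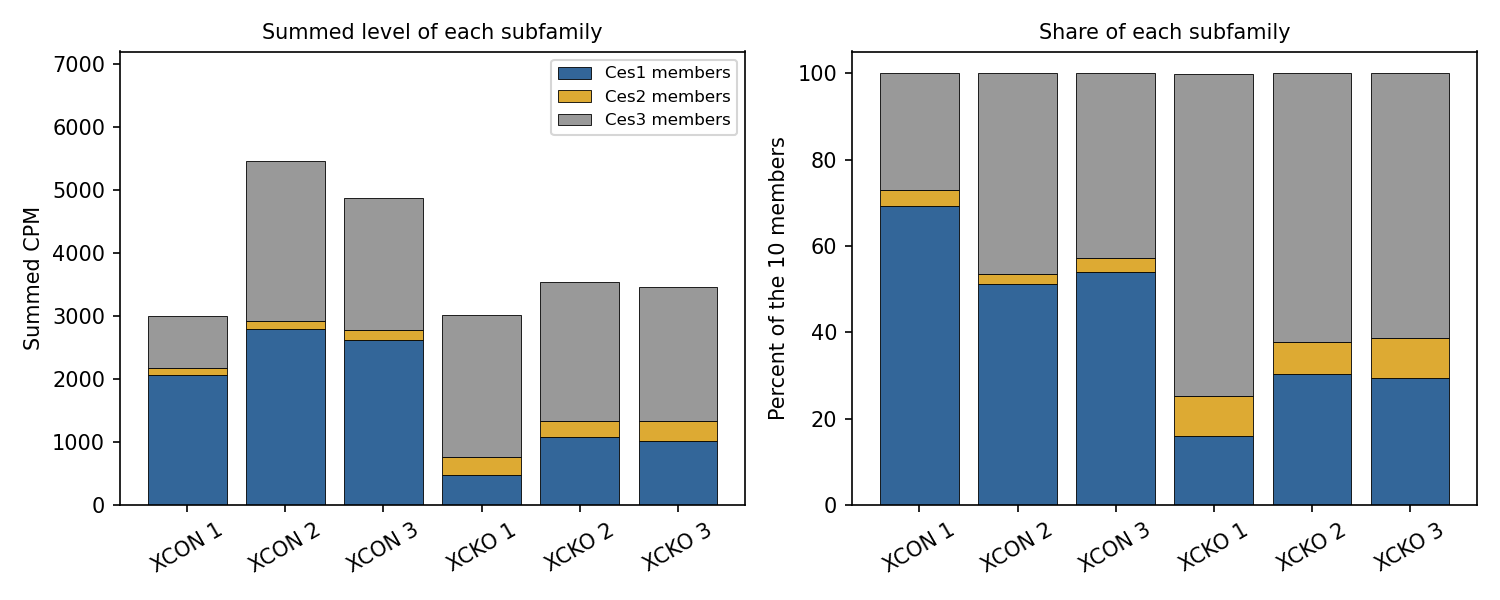
Summed CPM of the Ces1, Ces2 and Ces3 members in each library (left) and the share of each subfamily in the total of the 10 members (right). The Ces1 part runs from 51.1% to 69.2% in the XCON libraries and from 16% to 30.4% in the XCKO libraries.

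Per unit of gene length, Ces1c led the 10 members in XCON with 623 ± 127 FPKM, followed by Ces3a with 568 ± 252 FPKM (± SD, 3 libraries), and their ranges overlapped. Ces1d (143 ± 27.3), Ces3b (107 ± 82.2), Ces1g (93.1 ± 14.1) and Ces1f (77.4 ± 18 FPKM) followed, each overlapping the next. Ces1e (51.9 ± 2.55) and Ces2a (49.3 ± 9.13 FPKM) overlapped as well, and Ces1b (28.2 ± 11.4) and Ces2c (6.88 ± 1.37 FPKM) were lowest. In XCKO, Ces3a led with 793 ± 40.5 FPKM (± SD, 3 libraries) and overlapped no other member. Ces1c (153 ± 44.5) came next, overlapping Ces2a (117 ± 15.8 FPKM). Ces1g stood at 14.6 ± 8.55 FPKM in XCKO, overlapping Ces1b at 11.6 ± 4.3 FPKM. Ces2e, which is not a member and is left out of this order, had 84.1 ± 11.8 FPKM in XCON and 108 ± 13.8 FPKM in XCKO (± SD, 3 libraries). Within Ces1, the share of summed FPKM taken by Ces1c was 57.6% to 65.7% in XCON and 40.9% to 53.1% in XCKO, and that of Ces1f was 6.90% to 8.37% and 15.8% to 20.8%.

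How far paralogs can share reads was examined on the reference transcripts by asking which stretches of a given length occur in another gene as well. At 100 bases, 1.29% of the stretches of Ces1b and 1.39% of those of Ces1c were shared, all between these 2 genes, and 0 in Ces1d, Ces1e, Ces1f and Ces1g. Ces3a and Ces3b shared 9.09% and 7.68% with each other. For Ces2a 10.7% were shared with the pseudogene Gm7208, which had 14 reads in all libraries together, and for Ces2c 16% with Ces2d-ps and Gm8798, which had 64 and 89 reads. At 50 bases the shares were 1.28% to 42.2% and at 150 bases 0% to 4.03%. Neither the read length nor the handling of reads with several matches is given in the sources used here. Ces3a also overlaps an exon of Gm45724 on the opposite strand, and whether counting used strand is not given.

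**Figure D4:**
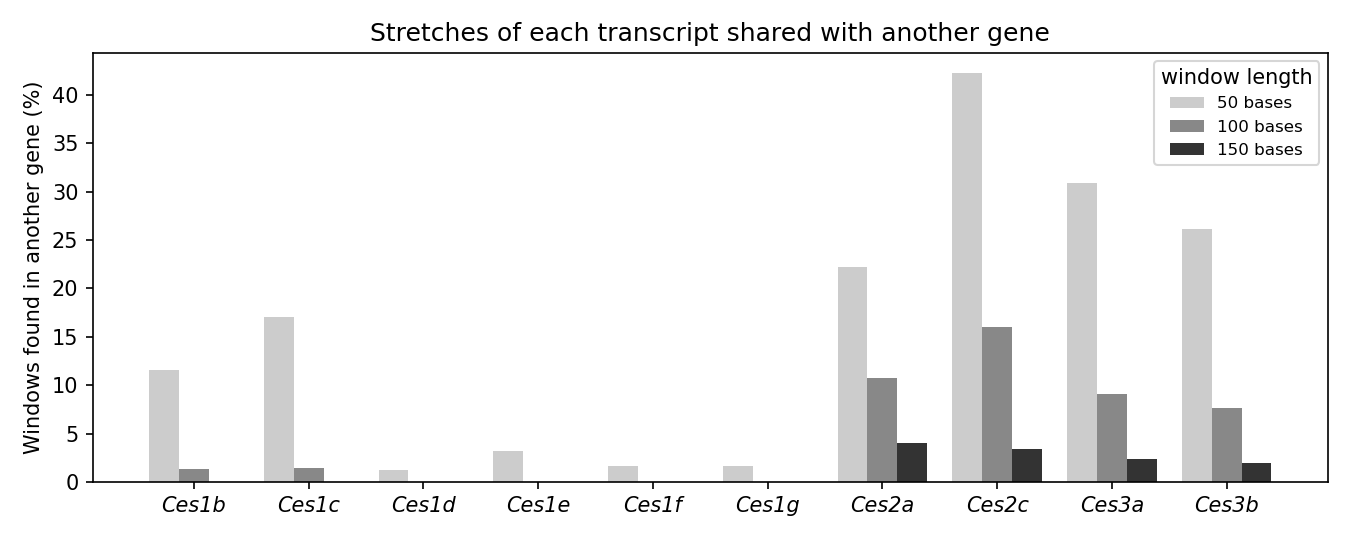
Share of all stretches of 50, 100 and 150 bases of each member's longest coding transcript that also occur in a transcript of another gene, in percent. At 100 bases, Ces1d, Ces1e, Ces1f and Ces1g share 0 and Ces2c shares the most, 16%.

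The promoters of 7 members, as 300-base windows from 250 bases before to 50 after the start, were found in RefSeq (GRCm38.p6). Those of Ces1b and Ces1c aligned over 270 bases with 254 identical. They are shown 5′ to 3′ because they are the most alike of the windows, with capitals marking bases that differ or have no partner in the alignment and the ends outside it left in lower case. Ces1b is chr8:93079891-93080190 and Ces1c chr8:93131234-93131533, both on the minus strand.
Ces1b: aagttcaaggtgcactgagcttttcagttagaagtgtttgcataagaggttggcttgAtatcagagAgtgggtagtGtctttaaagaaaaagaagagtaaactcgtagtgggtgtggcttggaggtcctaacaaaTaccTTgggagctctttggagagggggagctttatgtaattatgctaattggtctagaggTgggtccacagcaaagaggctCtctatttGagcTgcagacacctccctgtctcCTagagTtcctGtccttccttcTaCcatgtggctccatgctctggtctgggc
Ces1c: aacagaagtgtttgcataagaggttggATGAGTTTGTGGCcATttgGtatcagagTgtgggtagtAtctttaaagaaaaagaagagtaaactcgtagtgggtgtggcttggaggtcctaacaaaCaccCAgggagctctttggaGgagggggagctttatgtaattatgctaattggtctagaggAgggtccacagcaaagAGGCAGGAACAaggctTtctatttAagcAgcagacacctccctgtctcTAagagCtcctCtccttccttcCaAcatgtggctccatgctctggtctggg
The windows of Ces2a and Ces2c aligned over 261 bases with 193 identical, and of these genes Ces2a was higher in XCKO and Ces2c did not pass. ACGT, the core of the DNA element bound by XBP1, was searched on both strands. It was in 0 of the 8 windows of members and in 30.9% of all 32851 windows. CCACG, a part of the ER stress response element, was in 0 of 8 and in 32.8%. That these letters are missing from a 300-base window says nothing about binding elsewhere.

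The genes most like each member were those with the highest Pearson correlation of log2 CPM over the 6 libraries among 9474 genes. Ces1c and Ces1e were in each other's closest pair (r = 0.995), beside Ddx60 for Ces1c (0.995) and Erp44 for Ces1e (0.996). Ces1g was closest to Hif1a (0.995), Ces2a to Coq2 (0.999) and Ces3a to E2f1 (0.992). These are the highest of many correlations over 6 libraries that differ by group, and they are given as descriptions.

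Other hydrolases and lipases of the liver were examined beside the family. The neutral lipid hydrolysis list had 14 tested genes, of which 3 rose, 1 fell and 10 missed the threshold (median 0.23). Abhd6, a monoacylglycerol lipase, rose by 0.74 on the log2 scale and Lipc, hepatic lipase, by 0.63. G0s2, an inhibitor of the triglyceride lipase ATGL, rose from 133 ± 70.6 to 433 ± 79.9 CPM (± SD, 3 libraries). Pnpla3, a lipid droplet protein, had a log2 fold change of -2.18 at 2.85 ± 1.63 CPM in XCON and 0.624 ± 0.0631 in XCKO (± SD, 3 libraries). Aadac, an ER hydrolase related to the carboxylesterases, had 388 ± 48 and 566 ± 63.3 CPM (± SD, 3 libraries; adjusted p = 0.088), chosen after its values were seen. Of 12 other ester and epoxide hydrolases, 1 was higher (Bphl, 0.92), 0 lower and 11 did not pass, with a median of 0.46.

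Of 14 transcription factors reported to act on carboxylesterase genes, 2 rose, 1 fell and 11 missed the threshold (median 0.32). Srebf1 rose by 1.33 and Cebpa by 1.05 on the log2 scale, and Nfe2l2, which encodes the oxidative stress factor NRF2, fell by 0.77. The xenobiotic receptor genes Nr1i3 (CAR), at 14.8 ± 5.45 and 28.2 ± 13.3 CPM (± SD, 3 libraries), and Nr1i2 (PXR), at 64.6 ± 15.5 and 71.6 ± 3.44 CPM (± SD, 3 libraries), did not pass (adjusted p = 0.15 and 0.64). They were picked for naming after their values were seen, as inducers of Ces2a. Of the 3 KDEL receptor genes, which return proteins with a retention signal to the ER, 0 passed in edgeR (0 at an unadjusted p under 0.05 and 0 by DESeq2), and Kdelr3 had the smallest p (log2 fold change -1.59, adjusted p = 0.17).

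Outside the family, 12 genes reported as RIDD substrates were tested, of which 0 rose, 3 fell and 9 missed the threshold (median -0.53). Hgsnat had a log2 fold change of -0.67, Acacb -1.05 and Pdgfrb -1.48. Pdgfrb is also a stellate marker, a list with a median of -1.0. Of 10 genes of the unfolded protein response, 0 were higher, 3 lower and 7 did not pass (median -0.27). The lower genes were Sdf2l1 (-1.33), Dnajb9 (-1.35) and Eif2ak3 (-1.09). The IRE1 gene Ern1 stood at 95.2 ± 26.6 CPM for XCON and 99.2 ± 23.2 for XCKO (± SD, 3 libraries; adjusted p = 0.89).

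Ces1d and Ces1f are also expressed in adipocytes. Of 10 adipocyte markers 6 were tested, of which 3 were higher (Cfd, Car3 and Slc2a4) and 0 lower. Fabp4, Cidec and Adrb3 did not pass. Summed over the list, XCON libraries had 658 to 1365 CPM and XCKO libraries 2339 to 2603 CPM. Most of this sum was Car3, with 564 to 1268 and 2020 to 2427 CPM. The defining markers Adipoq, Plin1, Lep and Retn were at or near 0, with at most 0.0629 CPM as a group mean.

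In the authors' deposited table, 5 members passed an adjusted p of 0.05, against 10.2% of the 24709 genes it covers. It gave log2 fold changes of -2.02 for Ces1c, -2.67 for Ces1g, -0.86 for Ces1e, -1.28 for Ces1b and 1.25 for Ces2a. DESeq2 on the same counts gave these same log2 fold changes, so it and that table are not separate results. The deposited table also covers genes with few reads, such as Ces1h with 8 in all libraries together. DESeq2 as run here gave an adjusted p to 14878 genes, of which 17.1% passed. Ces1b, at an adjusted p of 0.003612892 in the authors' deposited table, is the member on which that table and edgeR's test differed.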

How the data were processed

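Per the labels' protocols, Trizol served for RNA extraction and total RNA went into a NEBNext Ultra library. The authors deposited raw read counts per gene, FPKM, group means as a signal of counts divided by size factors, and log2 fold changes with p-values and adjusted p-values, from tools not given in the sources used here. Bowtie 0.12.2, mm8 and mm10 are listed in the submitters' processing notes, which give them no role. All 20 carboxylesterase rows had the same start and end in GENCODE M21 (mm10).

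Counts were filtered with filterByExpr, scaled by TMM and tested with edgeR 4.0.16 (R 4.3.3) by the robust quasi-likelihood test on group over 6 libraries, with Benjamini-Hochberg adjustment over 14873 genes. Errors are SDs over 3 libraries, or SEs taken as the absolute log2 fold change over the square root of F. The biological coefficient of variation was 25.8%. On counts simulated for the XCKO and XCON comparison over 14873 genes, 40% of 100 genes changed by 1 on the log2 scale and 91% of 100 changed by 2 were recovered. The simulated scatter followed its trend with expression level, so genes more variable than that trend are not covered. No mouse is named for single samples, and a p-value therefore reflects only how these libraries vary, which may be technical.

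Alternatives were DESeq2 1.42.0 and its size factors, library totals alone, other filters, the replicate number as a block, limma 3.58.1 (voom, and log2 of FPKM plus 1 or plus 0.1, for genes reaching 1 FPKM in 3 libraries), and each library left out. A length correction was added after seeing the data. The members, lists and naming rule were chosen with earlier results of these data known. All members are named, other carboxylesterases if at 1 CPM in a library, up to 4 passing genes per list or the gene with the smallest p, and the 2 genes most like each member, of which some are given. Coding sequences were aligned globally and promoters locally with Biopython.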

Additional observations from a re-analysis of the deposited data

How the results depend on the processing

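No member changed direction under any of 16 alternatives, and 150 of 160 values for single members kept their side of the threshold. Ces1c, Ces1e and Ces2a passed in all 16. Ces1g did not pass without a filter on low counts (adjusted p = 0.11), with the replicate number as a block (0.053) or without 4 of the 6 libraries. Ces1b passed with library totals alone (adjusted p = 0.037), with the block (0.028) and in DESeq2 (0.0035), and Ces2c passed with library totals alone. Replicate numbers are shared by the titles only, and over all genes the deviations of same-numbered libraries correlated at r = 0.055, 0.076 and -0.17. Among the members, XCON 1 and XCKO 1 were both below their group mean in 8 of 10, and the block took the SE of Ces1b from 0.39 to 0.13 and of Ces3b from 0.82 to 0.34. The count of genes past the threshold was 1378, against 322 with the block, 2358 with library totals alone (326 higher and 2032 lower, against 775 and 603), 2160 without the filter and 2543 in DESeq2. It was 684, 810 and 309 without XCKO 1, 2 and 3, and 489, 628 and 625 without XCON 1, 2 and 3. The median of all genes moved from -0.05 to -0.31 with library totals alone, and the Ces2 sum differed by 0.83 there, against 1.09 on the log2 scale. The Ces3 sum differed by 0.43 and by -0.07 without XCON 1. The median share of stretches shared between paralogs was 1.34% at 100 bases, 14.3% at 50 and 0% at 150. Where no cause is named, the cause was not tested.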
